A study of Mus musculus with 2 samples.

Results

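The peaks described here are CTCF binding sites inside the introns of very long genes in mouse limb tissue. A peak was a member when it was in the list named optimal, its summit lay on chromosomes 1 to 19 inside a protein-coding gene of 300 kb or longer (GENCODE M21 models, mm10 build), over 1 kb from every annotated transcription start site (TSS) and outside all exons. Of 48806 optimal peaks on these chromosomes, 3744 (7.67%) were members, and they lay in 511 of 541 such genes. Position and gene length alone chose them, and no measured value did beyond presence in the list. The study measured CTCF by chromatin immunoprecipitation and sequencing in limbs of strain B6NCrl embryos of both sexes at embryonic day 14.5. It holds 1 group of 2 libraries, replicate 1 and replicate 2, which the labels trace to a single pool of pulverized limbs from several dissections. The labels number them as biological replicates 1 and 2. Because the pool was shared, the spread between them may still be technical. No treatment or genotype was compared. The lists give peaks and signals but no reads, so the read depth is unknown. A limb pool mixes cartilage, muscle, skin, vessel and nerve cells, so a peak cannot be assigned to 1 cell type.

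CTCF is a zinc finger protein that binds a long, directional DNA motif. Cohesin, which extrudes chromatin loops, tends to stop at CTCF, and loops form most often between a pair of motifs that point towards each other. Within a gene body such sites can form loop anchors, mark alternative promoters or affect how RNA polymerase passes and how exons are spliced. The longest genes of mammals are mostly neuronal adhesion molecules, ion channels and their partners, with smaller numbers of muscle, matrix and transcription factor genes, and several of them span common fragile sites, which break when replication is slowed.

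The DNA under 8 of the strongest members is shown first, followed by 5 members that are alone or nearly alone in a gene of 860 kb or longer, since these are the extremes of the set. Each line gives 40 bases of the GRCm38.p6 reference assembly (mm10), 5′ to 3′ in the direction of the motif, with the coordinates and the strand. Capitals mark the 20 bases that best matched a CTCF matrix built from these data, and every site lies in an intron of the gene named.
Gse1 (chr8:120319683-120319722, plus strand): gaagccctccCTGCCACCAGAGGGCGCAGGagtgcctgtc
Palld (chr8:61539998-61540037, plus strand): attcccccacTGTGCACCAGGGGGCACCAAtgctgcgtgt
Aff3 (chr1:38185677-38185716, plus strand): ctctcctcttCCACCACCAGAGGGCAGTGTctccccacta
Cdh23 (chr10:60408060-60408099, plus strand): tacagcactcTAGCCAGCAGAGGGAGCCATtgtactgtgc
Iqsec1 (chr6:90728831-90728870, minus strand): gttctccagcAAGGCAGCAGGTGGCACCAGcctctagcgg
Cacna1d (chr14:30137145-30137184, plus strand): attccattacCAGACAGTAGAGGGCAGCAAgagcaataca
Lsamp (chr16:42165108-42165147, minus strand): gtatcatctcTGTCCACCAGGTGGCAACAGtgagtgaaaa
Ctnna3 (chr10:64084572-64084611, plus strand): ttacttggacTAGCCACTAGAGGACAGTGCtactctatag
Naaladl2 (chr3:24321680-24321719, plus strand): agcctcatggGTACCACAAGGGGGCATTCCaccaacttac
Lingo2 (chr4:36289300-36289339, plus strand): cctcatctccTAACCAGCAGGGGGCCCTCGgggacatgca
Lrp1b (chr2:41186970-41187009, plus strand): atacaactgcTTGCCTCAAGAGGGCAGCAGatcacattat
Cdh18 (chr15:23471260-23471299, minus strand): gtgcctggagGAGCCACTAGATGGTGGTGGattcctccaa
Grm8 (chr6:27657699-27657738, plus strand): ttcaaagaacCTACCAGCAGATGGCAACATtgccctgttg

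The strongest member lay in Gse1, which encodes a coiled-coil nuclear protein, with a signal of 422.9 in the optimal list and 210.2 and 214.2 in replicates 1 and 2. Signal is the authors' value per peak on the scale of its own list, so replicate signals are compared with each other and not with the optimal list. Palld, which encodes an actin-bundling protein, followed with 419.2, and its replicates read 224.2 and 195.1. Aff3, a nuclear factor gene of the AF4 family, read 416.1 (replicates 199.0 and 216.0), and Cdh23, which encodes a cadherin of the hair cell tip link, read 410.7 (replicates 206.0 and 208.6). In all 4 both replicates placed a summit within 100 bp and their values differed by far less than they exceeded the replicate medians given below. These sites ranked 151, 167, 181 and 212 of the 48806 autosomal peaks.

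Iqsec1, which encodes an exchange factor for ARF GTPases, read 395.6, and Cacna1d, which encodes the pore of an L-type calcium channel, read 388.5. The strongest site of Lsamp, a neuronal adhesion gene, read 383.5 (replicates 216.1 and 169.9), and that of Ctnna3, the alpha-T-catenin gene, read 382.3 (replicates 203.0 and 181.3). The 3 weakest members lay in Cdh12 (6.40), Atxn1 (5.22) and Tshz2 (5.15). None of these 3 had a motif or a summit within 100 bp in either replicate list.

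The 541 genes numbered 287 on the plus and 254 on the minus strand, had a median length of 450.5 kb and covered 12.9% of the gap-free autosomes. The part of them open to a member, called eligible intron below, came to 292.0 Mb. Over it, members occurred at 1.28 per 100 kb, and the strongest 49970 peaks of each replicate list gave 1.28 and 1.29 (1.28 ± 0.013, SD, n = 2). Introns of shorter coding genes, classed the same way, held 13158 peaks at 2.46 per 100 kb (2.45 ± 0.015 over the replicate lists, n = 2). Intergenic sequence held 17030 peaks at 1.42 per 100 kb (1.42 ± 0.0068, n = 2). Introns of very long genes therefore held 0.520 of the peak density of shorter genes, and the gap of over 1 peak per 100 kb was far larger than the spread between the replicate lists. No test across groups is possible with 1 tissue pool.

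A few gene models set part of these numbers. Of the 541 genes, 59 wholly contained at least 1 other protein-coding gene, and 8 contained 5 or more. Gm20388 spans 4435 kb with 1 transcript over 71 other coding genes, and Fgfr2, an FGF receptor gene, spans 2961 kb in the annotation only through 1 of its 27 transcripts, the next longest being 104 kb. Gm37240, Gm42416, Gm37013, Gm37388, Med12l and Zfp697 were the other 6. Gm42416, Gm37013 and Gm37388 cover clustered protocadherin genes and held 3 members each, while 38 to 41 optimal peaks of any class lay within each span. Together the 8 genes held 307 members, of which 273 (7.29%) were in no other gene of 300 kb or longer. Without them 3471 members in 533 genes remained, at 1.22 per 100 kb of eligible intron and 0.496 of the density of shorter genes. Some values below are also given without these 8 genes, a choice made after the data were seen.

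Peak density was lower in longer genes. Pooled over genes, it was 2.59 per 100 kb of eligible intron in genes of 30 to 100 kb, 2.10 in genes of 100 to 300 kb, 1.59 at 300 to 400 kb, 1.50 at 400 to 500 kb and 1.29 at 500 to 750 kb. The 49 genes of 750 to 1000 kb had 0.922, and the 55 genes of 1 Mb or over had 1.08, or 0.757 without the 3 of them that held 5 or more other genes. Across the 541 genes, Spearman's rho between length and members per 100 kb was −0.19. Between length and the number of members per gene, rho was 0.259. At the length limit itself, Atp2b2 (298.8 kb, 3 peaks), Akap13 (299.1 kb, 7) and Jazf1 (299.8 kb, 16) were just under, and Kcnq3 (300.3 kb, 3), Pam (300.5 kb, 5) and Nxph1 (300.6 kb, 2) just over.

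Base composition moved with density more closely than length did. Between GC content of the gene span and members per 100 kb, Spearman's rho was 0.756 over 541 genes, and 0.760 without the 8 genes. In the 20% of genes with the lowest GC content (34.8 to 38.4%), members occurred at 0.417 per 100 kb of eligible intron, and in the 20% with the highest (44.1 to 54.5%) at 2.95, or 2.73 without the 8 genes. The 3 groups between them had 0.849, 1.02 and 1.68. Genes of 30 to 300 kb in the same GC ranges had 0.841, 1.13, 1.47, 2.05 and 3.44, so in each of the 5 ranges the very long genes were lower. GC content and length were themselves related (rho −0.22), and their shares in the density were not separated.

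**Figure D1:**
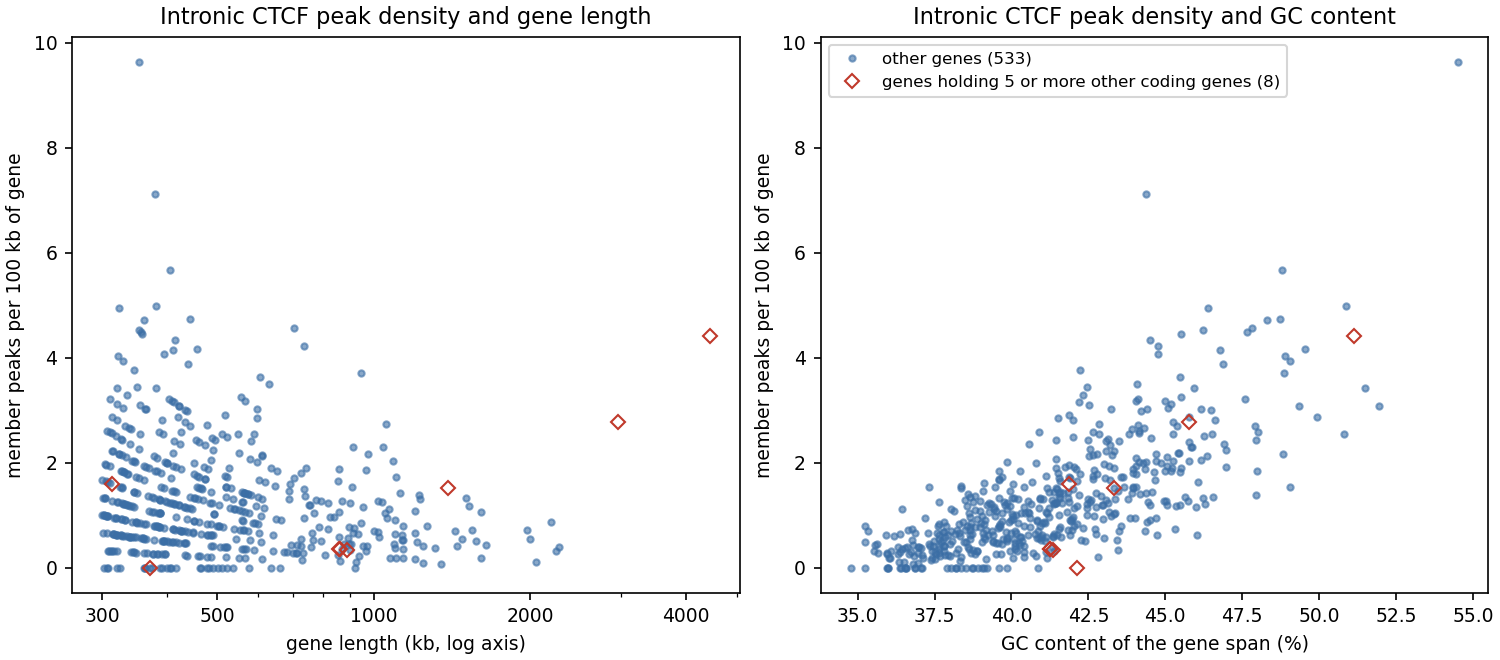
Member peaks per 100 kb of gene (y axis) against gene length in kb on a log axis (left) and against GC content of the gene span in percent (right), 1 point per gene, with open diamonds for the 8 genes that hold 5 or more other coding genes. Density lies below 1 peak per 100 kb for most genes of 1 Mb or over, and it is higher at higher GC content (Spearman's rho 0.756, n = 541).

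Counts per gene were uneven. The median gene had 5 members (quartiles 3 and 9) or 1.04 per 100 kb of gene (quartiles 0.529 and 1.78), the mean was 7.02 ± 10.3 (SD over 541 genes), and 30 genes had none, 34 had 1, 123 had 10 or more and 18 had 20 or more. The 54 genes with the most members held 33.2% of all gene and peak pairs in 15.9% of the summed gene length. Counts were close between the replicate lists: 221 genes had the same number in both, 420 were within 1, and Spearman's rho over genes was 0.950. The median SD between the replicate lists was 0.0958 members per 100 kb, against an SD of 1.11 between genes.

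Apart from Gm20388 (196 members) and Fgfr2 (82), Camta1 led. This gene for a calmodulin-binding transcription activator had 35 members in 945 kb, with 32 and 37 in replicates 1 and 2. Gse1 had 34 in 353 kb (40 and 31), or 9.63 per 100 kb, the highest density of the 541 genes, and all of it lies inside the span of Gm20388. Its GC content of 54.5% was also the highest. Nav2, a gene for a cytoskeletal neuron navigator protein, had 32 members (29 and 33), and Rora, a nuclear receptor gene, had 31 (27 and 27).

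Rbms3, which encodes an RNA-binding protein, had 29 members in 1057 kb (30 and 31 in the replicate lists), the strongest of which read only 79.6. Fry, which encodes a scaffold for cell shape, had 27 in 379 kb (27 and 28), the second highest density at 7.12 per 100 kb. Cdh13, the T-cadherin gene, had 24 (18 and 21), and Slc39a11, a zinc transporter gene, had 23 (20 and 22). The densest 5 were completed by Sorcs2, a sortilin family receptor gene, at 4.99 per 100 kb, and Tmem132c at 4.94. Except in Gse1, whose replicate lists differed by 9 peaks, the replicate lists of these genes other than Gm20388 differed by at most 5.

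At the other end were genes with a single intronic site in about a megabase. Naaladl2, a gene related to glutamate carboxypeptidase, had 1 member in 1346 kb, with a signal of 39.5 (replicates 20.7 and 19.8) at 61.1% of the gene. Lingo2, which encodes a leucine-rich repeat protein of neurons, had 1 in 1245 kb, with 92.5 (48.5 and 42.5). Grm8, a metabotropic glutamate receptor gene, had 1 in 860 kb, with 137.0 (65.1 and 72.6). Each of these sites was found in both replicates, and in all 3 genes it lay between 53.2 and 61.1% of the way along, on the strand opposite to the gene. Cdh18, a cadherin gene, had its only member at 99.7% of its 925 kb, with 29.5 (13.8 and 15.7).

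Lrp1b, a lipoprotein receptor family gene of 2058 kb, had 2 members with signals of 18.8 and 22.4, lying 598.1 and 1467 kb from its 5′ end. Among the 10 longest genes of all it had the fewest, followed by Cntnap2 and Csmd1 with 7 each. The others were Ptprd with 9 in 2271 kb, Macrod2 with 11, Dlg2 with 14, Nrxn3 with 17, Lsamp with 19, Fgfr2 and Gm20388. Most encode synaptic or adhesion proteins, and all but the last 2 stayed under 1.1 members per 100 kb.

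Cntnap2, which encodes a neurexin-like adhesion protein, had 1 member at 264.3 kb with a signal of 124.1, then none for 1638 kb, and 6 from 1902 kb on. Those 6 had signals of 258.6, 166.8, 53.1, 87.3, 175.3 and 22.3 in order along the gene. The gap was the longest stretch without an optimal peak of any class in the 541 genes and runs from chr6:45323694-46961489. The median longest stretch per gene was 209.3 kb, and 43 genes had one of over 500 kb. Other long stretches, picked after their values were seen, were 1148 kb in Nkain2 and 1001 kb in Erbb4, both starting at the 5′ end of the gene.

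Dlg2, a synaptic scaffold gene, had 1 member at 35.8 kb, the next 714.2 kb on, and its strongest at 980.7 kb with a signal of 256.9. Lsamp had members along its whole length and its strongest near its 3′ end, where 3 sites at 2181, 2186 and 2188 kb read 383.5, 248.1 and 185.2.

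**Figure D2:**
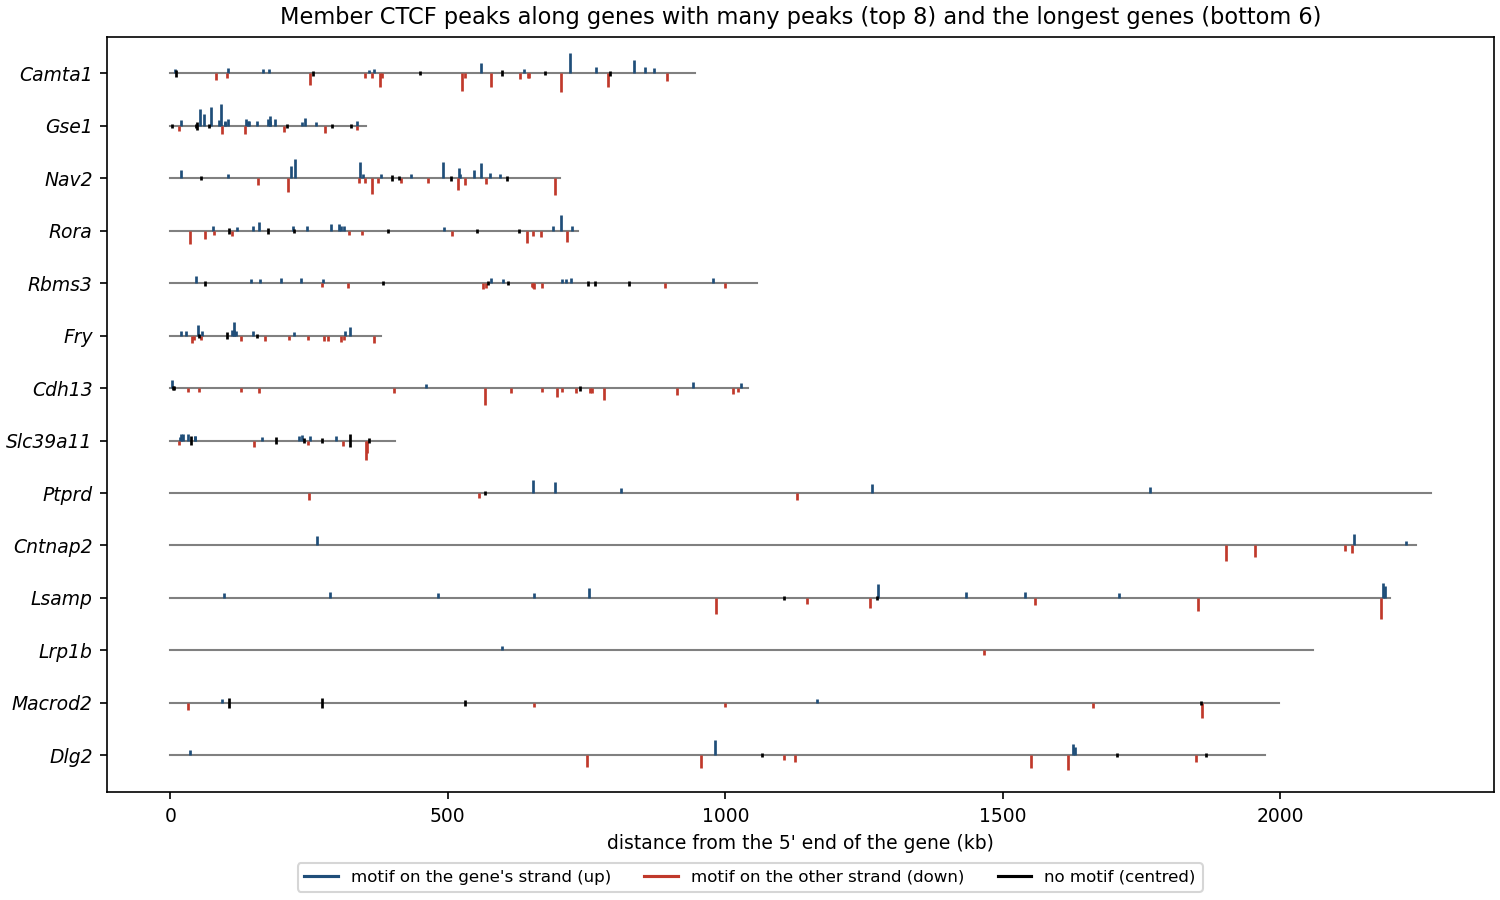
Member peaks along 14 genes, by distance from the 5′ end in kb (x axis); the upper 8 genes have many members and the lower 6 are the longest apart from Fgfr2 and Gm20388. Ticks point up for a motif on the gene's strand, down for the other strand and are centred without a motif, taller for higher signal; Cntnap2 shows the gap of 1638 kb and Gse1 the closest spacing.

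Of the 30 genes without a member, 21 had no optimal peak of any class within the gene span. In 26 of them, neither replicate had an intronic peak among its strongest peaks. Their median GC content was 38.0%, against 41.3% in genes with a member. The longest was Grm7, a metabotropic glutamate receptor gene of 921.7 kb, with 3 intronic peaks in replicate 1 and none in replicate 2. Nkain3, which encodes a partner of the sodium pump, came next at 660.0 kb. Fstl5, a follistatin-like gene, measured 635.8 kb, Zfp804b, a zinc finger gene, 575.7 kb and Iqcm 535.8 kb. Skint5 and Skint6, which encode immunoglobulin-like membrane proteins of skin and thymus, measured 521.6 and 482.4 kb. Cpq, a carboxypeptidase gene, measured 511.4 kb, Edil3, which encodes a matrix protein, 501.8 kb and Kcnh7, a potassium channel gene, 490.9 kb. Apart from Grm7, all 10 were without an intronic peak in both replicate lists.

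Gene lists by function had unequal densities, and the differences between them were not tested. Among 58 neuronal adhesion and axon guidance genes the median was 0.651 members per 100 kb of gene, with 20 of 58 above the median of all 541 (1.04). Cdh4, a cadherin gene, had the most at 4.16, and Slit3, a guidance cue gene, 2.55. Cntn6, a contactin gene, and Epha5, an ephrin receptor gene, had no member. In 43 ion channel, receptor and synaptic release genes the median was 0.761, with 12 above 1.04. Kcnip1, which encodes a potassium channel partner, had 3.02 and Syn3, a synapsin gene, 2.70, while Grm7 and Kcnh7 had none.

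In 36 developmental transcription factor and chromatin regulator genes the median was 1.31, and 25 lay above 1.04. Arid1b, which encodes a subunit of the BAF remodelling complex, had 4.53 (13 and 18 peaks in the replicate lists) and Rora 4.22. Bnc2, a zinc finger gene, had none, and Sox6, a regulator of cartilage and muscle, had 2 members in 568 kb, with signals of 38.2 (replicates 15.8 and 22.0) and 19.2 (14.1 and 3.16). The weaker site of Sox6 was thus read very differently by the replicates. In 27 contractile, cytoskeletal and membrane-link genes the median was 1.51, and 20 lay above 1.04. Nav2 had 4.56 and Kalrn, an exchange factor gene, 3.64, and the sarcoglycan genes Sgcd and Sgcz had 0.458 and 0.176.

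The 26 extracellular matrix, proteoglycan and growth factor signalling genes had a median of 1.12, with 15 above 1.04. Pooled over their summed length, however, they had 0.968 members per 100 kb, below the 1.22 of all 541 genes pooled in the same way. Ltbp1, which encodes a TGF-beta binding protein, led with 2.58, followed by Spock1, a proteoglycan gene, with 2.05. Egfem1 had 0.164, and Spock3, the paralogue of Spock1, had none. The 19 common fragile site genes, 6 of which are in another list too, had a median of 0.551, with 5 above 1.04. Wwox, an oxidoreductase gene, had 2.30 and Auts2, a chromatin factor gene, 1.72, and Naaladl2 and Lrp1b were the lowest.

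Pooled over each list, the replicate lists gave 0.764 ± 0.016 members per 100 kb for adhesion genes, 1.68 ± 0.022 for transcription factor genes and 1.59 ± 0.039 for contractile genes (SD, n = 2). That spread is between libraries only. Between genes, the quartiles overlapped: 0.369 and 1.21 in adhesion genes, 0.988 and 2.67 in transcription factor genes, and 1.01 and 2.14 in contractile genes. Their median GC content was 38.4, 42.8 and 41.5%, in that order, and 39.0% for fragile site genes. Ion channel and matrix genes had a median GC content of 40.1 and 40.0%, with medians of 0.761 and 1.12 members per 100 kb. Contractile genes had a higher median density (1.51) than transcription factor genes (1.31) at a lower GC content. Fragile site genes (0.551) lay below adhesion genes (0.651) at a higher GC content. Pooled over each gene list instead, transcription factor genes had 1.74 members per 100 kb and contractile genes 1.59, the reverse of the order by median. Fragile site genes had 0.648 and adhesion genes 0.786, the same order as by median. The relation of list density to GC content was not tested.

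**Figure D3:**
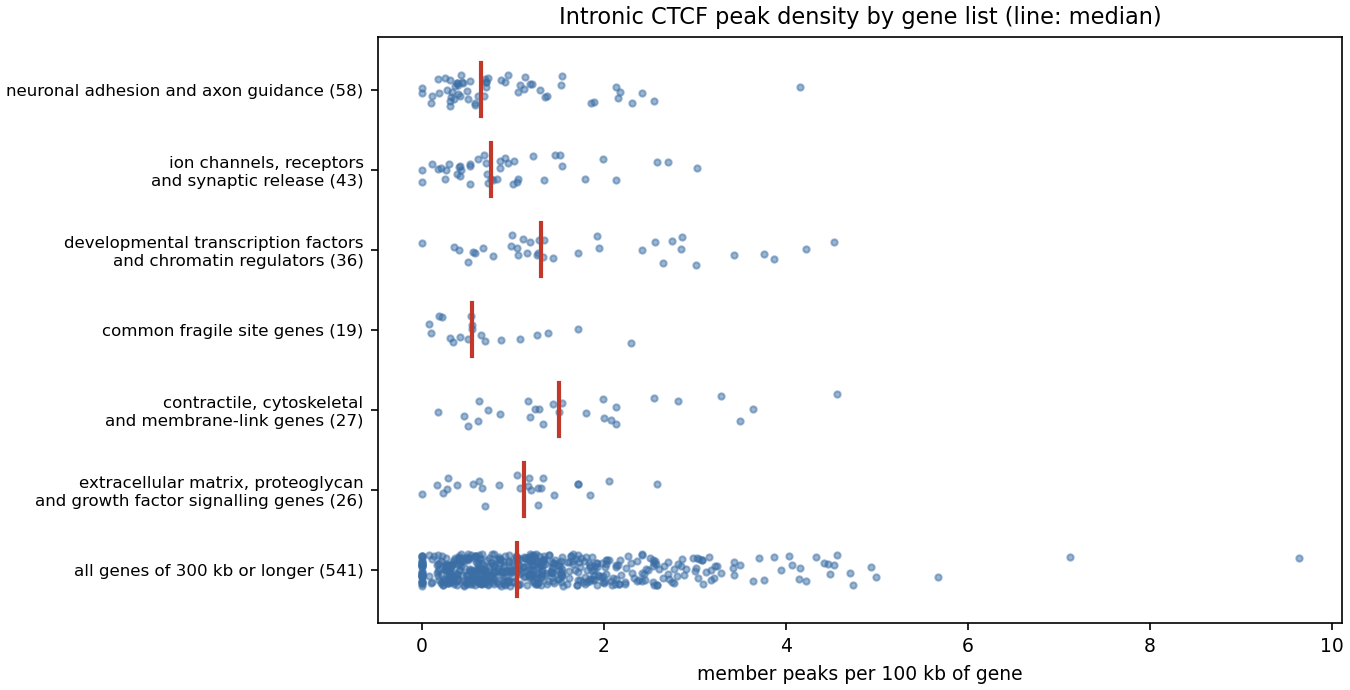
Member peaks per 100 kb of gene (x axis) for genes of 300 kb or longer in 6 lists and for all 541, with 1 point per gene, a red line at the median and the number of genes in brackets. The medians run from 0.551 in common fragile site genes to 1.51 in contractile, cytoskeletal and membrane-link genes.

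Members were somewhat weaker than other sites. Their median signal was 50.6 (quartiles 28.5 and 121.0), against 55.9 for intronic peaks of shorter genes and 69.5 for intergenic peaks. In the replicates the nearest summits read medians of 26.2 and 24.8 at members, 29.2 and 27.4 in shorter genes and 35.9 and 34.3 in intergenic sequence, the same order in both. Of the members, 7.10% were in the top 10% of autosomal signal, against 9.26% and 11.7%. Most were found in both libraries: 79.9% (2992) lay within 100 bp of a summit of the strongest 49970 in replicate 1 and in replicate 2. The share was 80.6% in shorter genes and 83.7% in intergenic peaks. The conservative list held 86.9% of members, 87.1% of intronic peaks of shorter genes and 89.5% of intergenic peaks. No summit was found in either full replicate list for 6 members. Spearman's rho between replicate signals was 0.918 over 3682 members, a correlation across peaks, which are not independent replicates.

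**Figure D4:**
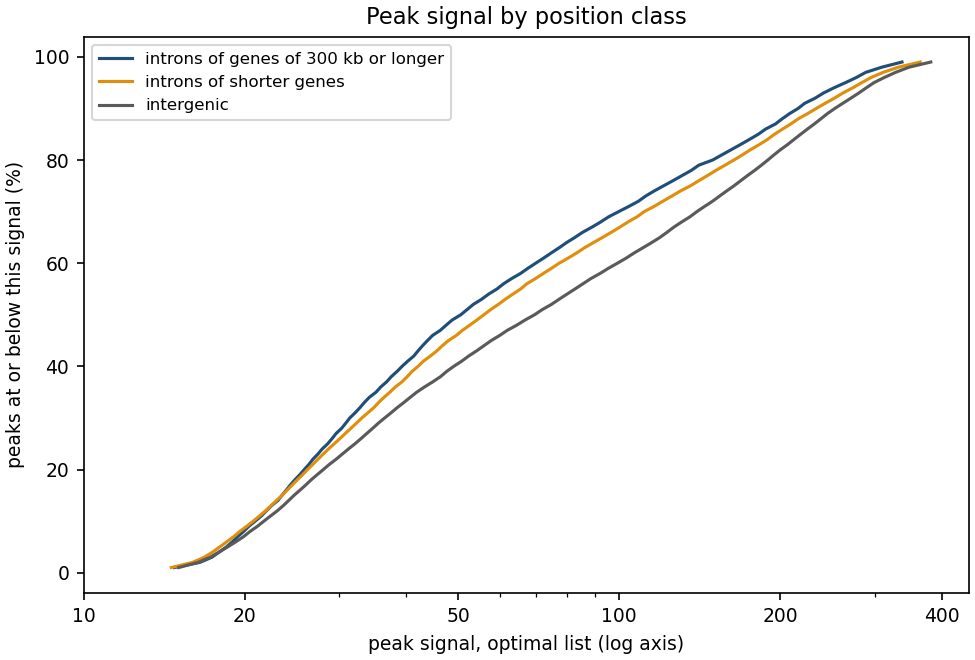
Share of peaks in percent (y axis) at or below each signal of the optimal list (log x axis) for members, intronic peaks of shorter genes and intergenic peaks. The curve of the members lies furthest left above the lowest 20% of peaks, with medians of 50.6, 55.9 and 69.5.

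A CTCF motif, with the score cut set so that 5% of windows 1 kb off a peak passed, lay within 50 bp of the summit in 81.6% of members (exact 95% interval 80.3 to 82.8%), against 84.8% in shorter genes and 86.2% in intergenic peaks. The best-scoring sequence of the matrix was TGGCCACCAGGGGGCGCCAG. Members with a motif had a median signal of 60.9, and the 689 without one 29.8. Summits in repeat-masked sequence made up 17.3% of members, against 23.2% in shorter genes and 18.6% in intergenic peaks. Of these 646 members 89.9% had a motif, and the median signal of all 646 was 33.4. Among the 3098 other members 79.9% had a motif, and their median signal was 59.4. The median member lay 23.1 kb from the nearest TSS of any gene, and 976 (26.1%) lay over 50 kb away.

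Position along the gene was followed for the 3692 members that lay in 1 such gene. In 10 bins of equal length from the 5′ to the 3′ end, genes had 1.28, 1.20, 1.18, 1.07, 1.13, 1.26, 1.10, 1.34, 1.29 and 1.73 members per 100 kb of eligible intron. The replicate lists gave 1.78 and 1.81 in the last bin (1.79 ± 0.021, n = 2) and from 1.06 to 1.36 in the other 9, so the last 10% of the gene stood above the rest in both. Its median signal was also the highest of the 10, at 67.7. GC content was 41.8% in the last bin and 40.6 to 41.4% in the others. Genes of 100 to 300 kb had 2.60 and 2.67 in their last 2 bins and 1.69 to 2.17 in the rest, so the higher density near the 3′ end was present in them too.

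By distance, members were dense close to both ends. The interval from 1 to 10 kb inside the 5′ end had 2.38 per 100 kb (103 members), the next 15 kb had 1.03, and beyond 200 kb the value was 1.26. Inside the 3′ end the values were 2.07 at 1 to 10 kb, 2.37 at 10 to 25 kb (175 members), 1.59 at 25 to 50 kb and 1.14 beyond 200 kb. The first, the second and the third intron had 1.24, 1.19 and 1.09 members per 100 kb and later introns 1.32, a smaller range than between the ends and the middle. The longest intron of each gene held 38.7% of the members in 37.6% of the eligible sequence.

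Motif direction was not even along the gene. Over all 3016 motifs, 49.9% lay on the strand of the gene (exact 95% interval 48.1 to 51.7%), but in the first 10% of the gene 62.5% did (56.7 to 68.0%; 185 of 296) and in the last 10% of the gene 35.8% (31.0 to 40.8%; 140 of 391). In 5 bins of equal length the share was 58.6, 53.9, 54.4, 45.4 and 39.6%. Pooled over genes, motifs near either end thus pointed into the gene body more often than out of it. Counted once per gene, in 444 genes with 2 or more motifs, the difference was small. The 5′-most motif, wherever it lay, was on the gene's strand in 52.3% (47.5 to 57.0%). The 3′-most motif was in 48.9% (44.1 to 53.6%), and both intervals include 50%. In the genes of 500 kb or longer alone, which hold 1992 of the members, the first 20% of the gene had 59.3% and the last 20% had 45.9%, closer to 50% at the 3′ end. Such intervals cover counting error only, since neighbouring peaks are not independent.

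This difference in direction was present in both replicate lists. The first 20% of the gene had 58.6 and 57.1% on the gene's strand in replicates 1 and 2 (57.9 ± 1.06, n = 2). The last 20% had 40.4 and 40.0% (40.2 ± 0.255, n = 2). Motif direction was read from the reference sequence at sites that both lists largely share. The spread therefore covers only which peaks were listed, and the lists are not independent evidence on direction. Stronger members gave 59.0 and 38.7% in the first and last 20%, and weaker members 58.0 and 41.1%. Genes of 100 to 300 kb gave 58.9 and 36.5%, close to the very long genes. Genes of 30 to 100 kb gave 52.6 and 43.3%, a smaller difference, which was not tested against the others.

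**Figure D5:**
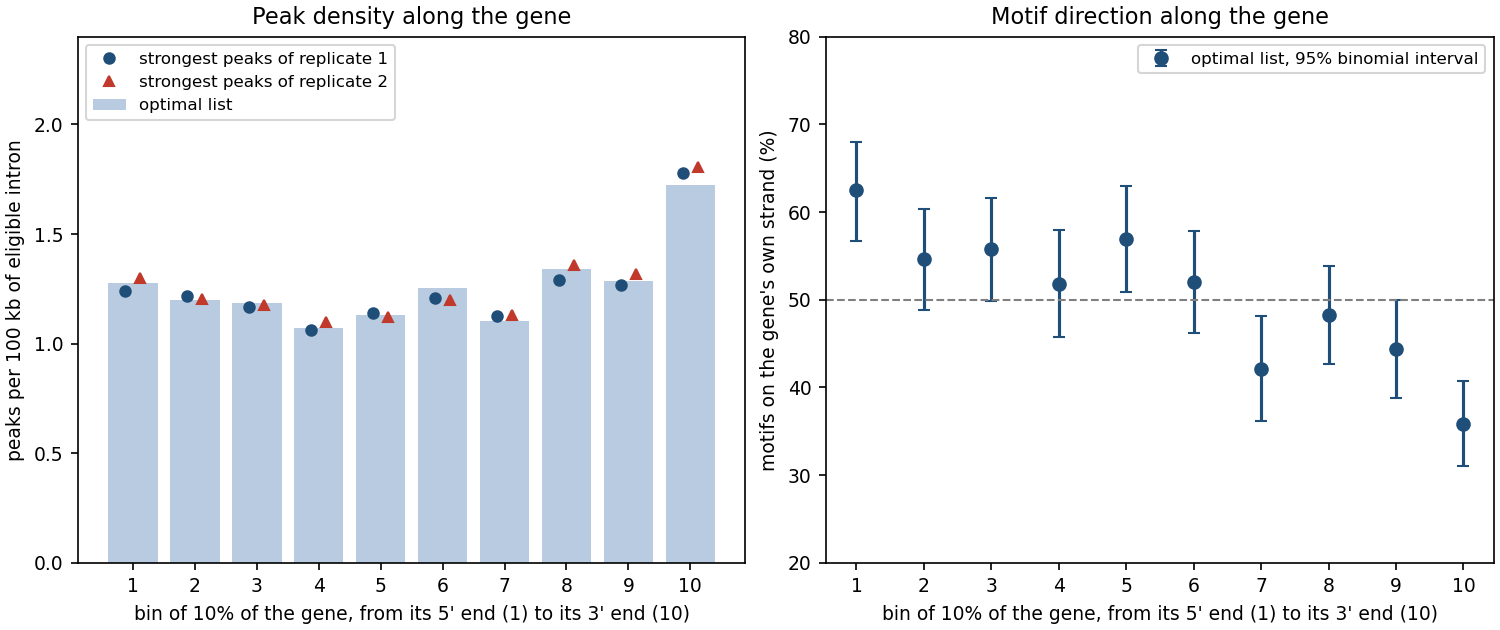
Members per 100 kb of eligible intron (left, bars from 0) and percent of motifs on the gene's own strand (right, exact 95% intervals, dashed line at 50%) in 10 bins along the gene from the 5′ to the 3′ end. Points on the left are the strongest peaks of each replicate list; density is highest in the last bin (1.73), and the share on the gene's strand goes from 62.5% in the first bin to 35.8% in the last.

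Single genes varied around this pattern. Cdh13 had 4 of 21 motifs on its own strand. Gse1 had 21 of 27, but its members also lie in Gm20388 and so did not enter the shares along the gene. Camta1 (13 of 29), Nav2 (15 of 27), Rora (14 of 25) and Fry (12 of 24) were mixed. Of 2517 neighbouring motif pairs within a gene, 585 pointed towards each other with a median gap of 48.8 kb (quartiles 15.0 and 120.1), and 570 pointed apart with a median gap of 24.6 kb (8.25 and 62.4). Pairs in the same direction numbered 681 along and 681 against the gene, with gaps of 34.3 and 35.5 kb. The outermost motifs of a gene faced each other in 128 of 444 genes (28.8%) and faced away in 113 (25.5%). Along a gene, pairs that point towards each other and pairs that point apart must alternate. Their numbers are therefore nearly equal by construction, and any difference is set by the outermost motifs. The counts of neighbouring and of outermost pairs are thus not separate observations.

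At the promoters of the same genes, 283 of 541 (52.3%) had an optimal summit within 1 kb of a TSS, against 6890 of 20266 shorter genes (34.0%). Very long genes had a median of 6 annotated TSSs and shorter genes 3, so the chance to be near one differed. Genes with a promoter peak had a median of 1.21 members per 100 kb and the 258 without one 0.833.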

How the data were processed

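The authors deposited 5 peak lists on mm10: 1 per library, a pooled list, and 2 named conservative and optimal. Per the deposited notes, each library's list came from its filtered alignments and 1 further file, and the last 2 from the replicate and pooled lists and 1 further file. For the aligner, peak caller, control and thresholds, the sources used here give nothing. The signal of each peak is the authors' deposited value on a scale those sources do not describe.

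From these lists the optimal peaks were classed with GENCODE M21 and GRCm38.p6. Each replicate list was reduced to its strongest 49970 peaks, the length of the optimal list. Per-gene rates use the gene's length, and pooled, position and distance rates its eligible intron. A peak in several long genes counts once in totals and once in each gene. The motif matrix was refined in 10 rounds on the 1000 strongest optimal peaks from odd autosomes, so motif shares include training peaks. On even autosomes 81.1% of members had a motif. Scanning and position steps were tested on simulated data with Python 3.11.15, numpy 2.4.6, pandas 2.3.3 and pysam 0.24.0.

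The genes named are the 10 with most members, the 5 densest and 5 least dense above 0, the 10 longest without a member, the 10 longest, 2 at each end of each list, and the 12 strongest and 3 weakest peaks, not all printed; some items are not reported here. Members, lists and rules were chosen with earlier results of these data known. No test was possible with 1 group.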

Additional observations from a re-analysis of the deposited data

How the results depend on the processing

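Each result was recomputed with 1 choice changed at a time, and a value was taken as unmoved when it shifted by less than the SD between the replicate lists, and a count when it stayed within 1.5 times. That SD is small, so most values moved; the density stayed below that of shorter genes, and more motifs lay on the gene's strand in the first 20% of the gene than in the last, under every alternative run. The shares of motifs by 20% bin, the density in the last 10% and the setting without the 8 genes were added after seeing the data. Members per 100 kb of intron (1.28) were 1.25 with the conservative list, 0.580 with the strongest 50% of peaks, 1.37 and 1.12 at 250 and 500 kb, 1.19 at 5 kb from every TSS, 1.31 with basic transcripts, 1.21 over the gene span and 1.22 without the 8 genes. In the same order, apart from the conservative list, the ratio to shorter genes (0.520) was 0.485, 0.547, 0.489, 0.532, 0.509, 0.630 and 0.496, with 0.524 in the pooled list and 0.523 to 0.526 leaving out a replicate. The median signal (50.6) was 52.4 in the conservative list, 133.2 in the strongest 50%, and 24.3 to 25.9 in single replicate lists, which have their own scale. The motif share (81.6%) was 82.0% in the conservative and 82.8% in the pooled list, 92.7% in the strongest 50%, 82.3% at 500 kb, 81.3% with basic transcripts, 60.2% with the 1% motif score, and 81.0 to 81.3% leaving out a replicate. The share on the gene's strand (49.9%) was 49.7% (conservative), 49.6% (pooled), 48.8% (strongest 50%), 49.3% (250 kb), 51.5% (500 kb), 49.4% (5 kb), 50.1% (1% score) and 50.3% (without the 8 genes), and 49.3 to 49.5% leaving out a replicate. The share of members in the first 20% (19.8%) was 19.7% (conservative), 19.8% (pooled), 18.9% (strongest 50%), 19.6% (250 kb), 20.9% (500 kb), 18.2% (5 kb), 19.9% (basic), 19.7% (along eligible intron), 19.9% (without the 8 genes) and 19.8% leaving out either replicate. The strongest 50% and 500 kb settings left 1693 and 1992 members, and 93 and 8 genes without one, since they hold fewer peaks or genes. Within 1.5 times, but beyond the replicate SD, were 4561 members and 40 genes without one at 250 kb, and 3150 and 42 at 5 kb from every TSS. So were 3646 and 28 with the conservative list, 3869 and 29 with basic transcripts, and 3471 and 29 without the 8 genes. Genes without a member were also beyond it in the pooled list (28) and leaving out replicate 2 (31). Motifs on the gene's strand in the first 20% (58.6%) were 59.9% in the strongest 50%, 57.2% at 5 kb and 57.1 to 58.6% leaving out a replicate. In the last 20% (39.6%) they were 40.1% (conservative), 40.0% (pooled), 37.6% (strongest 50%), 38.0% (250 kb), 45.9% (500 kb), 40.3% (5 kb), 41.0% (1% score), 39.2% (without the 8 genes) and 40.0 to 40.4% leaving out a replicate. The density in the last 10% (1.73) was 1.76 (conservative), 1.82 (pooled), 0.950 (strongest 50%), 1.80 (250 kb), 1.48 (500 kb), 1.61 (5 kb), 1.75 (basic) and 1.78 to 1.81 leaving out a replicate. No paired analysis was possible because there is 1 group and the result comes from no test. For these shifts the cause was not tested. Read depth is unknown, so a gene without a member shows only that no peak was listed there.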

Other observations

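Per chromosome, members ranged from 0.908 per 100 kb of eligible intron on chromosome 15 to 1.86 on chromosome 5, with 1.83 on chromosome 8, where Gm20388 and Gse1 lie. Within 2 kb of a TSS lay 194 members, the nearest 1011 bp away. Of the genes without a member, 11 had a promoter peak, which lies within 1 kb of a TSS and can fall outside the gene span.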
